A study of Mus musculus with 16 samples.

Results

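The genes described here encode proteins of the mitochondrial respiratory chain and ATP synthase. They were taken by name, as every gene on the array whose only annotated symbol starts with Nduf, Sdh, Uqcr, Cox4, Cox5, Cox6, Cox7, Cox8 or Atp5. This gave 87 of 12393 genes, on 160 of 22690 probe sets, and the probe set with the brightest mean was used for each gene. By complex, 33 encode subunits of complex I, 4 of complex II, 8 of complex III, 17 of complex IV and 17 of complex V, and 8 encode assembly factors of complexes I and II. All 87 passed the filter on dim probe sets, which left 9063 genes in the tests.

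RNA of total skin was measured on 16 Affymetrix arrays from wild-type C57BL/6 mice and from mice of the K14deltaNB-cateninER line D2. The transgene drives an N-terminally truncated β-catenin, joined to part of the oestrogen receptor, from the keratin 14 promoter of basal keratinocytes, and 4-hydroxytamoxifen (4OHT) activates the protein. Skin was taken after 0, 1 or 7 days of 4OHT. Days 0, 1 and 7 had 2, 3 and 3 transgenic arrays and 3, 3 and 2 wild-type arrays. Wild-type mice received 4OHT as well, no array analysed here had vehicle alone, and all transgenic arrays came from 1 line. The labels used here do not give ages or say that each array is a separate animal, so p-values measure only how these samples spread, and that spread may be technical in part. Trimmed means of the arrays ran from 359 to 548 before scaling, the 3' to 5' ratio of Gapdh between 0.884 and 1.26, and replicates correlated at 0.974 to 0.988. The skin keratins Krt14, Krt5 and Krt10 were bright in every group, with means from 6730 to 8547, 7548 to 9413 and 12964 to 15416 scaled intensity units.

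Complexes I and II pass electrons from NADH and succinate to ubiquinone, complex III passes them to cytochrome c, and complex IV hands them to oxygen. Complexes I, III and IV pump protons across the inner membrane, and complex V, the ATP synthase, lets them return and makes ATP. Striated muscle is rich in this machinery and uses its own isoforms of several complex IV subunits, whereas most other tissues use the general forms. The subunits encoded by mitochondrial DNA carry other symbols and are not among the 87.

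The promoters of 2 pairs of complex IV isoforms and of Sdha are printed because Cox7a1, Cox8b and Sdha are among the genes called in the comparisons described next, and Cox7a2 and Cox8a are the general forms set beside the first 2. Each window is the 250 bases before the start of the gene, 5′ to 3′ on its own strand, from RefSeq on GRCm38.p6. Cox7a1 lies at chr7:30183921-30184170 on the plus strand, and Cox7a2 at chr9:79759854-79760103, Cox8b at chr7:140900447-140900696, Cox8a at chr19:7217617-7217866 and Sdha at chr13:74350241-74350490 on the minus strand. Capitals mark matches to 4 searched motifs, read on both strands: the palindromic core of the NRF-1 site, CGGAAG (the core of ETS factor sites, such as that of GABP), CAGCTG (an E-box) and TATAAA.
Cox7a1: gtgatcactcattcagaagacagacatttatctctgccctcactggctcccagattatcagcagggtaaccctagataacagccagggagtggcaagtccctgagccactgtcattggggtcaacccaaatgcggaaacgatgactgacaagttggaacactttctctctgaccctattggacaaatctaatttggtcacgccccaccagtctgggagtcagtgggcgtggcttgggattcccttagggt
Cox7a2: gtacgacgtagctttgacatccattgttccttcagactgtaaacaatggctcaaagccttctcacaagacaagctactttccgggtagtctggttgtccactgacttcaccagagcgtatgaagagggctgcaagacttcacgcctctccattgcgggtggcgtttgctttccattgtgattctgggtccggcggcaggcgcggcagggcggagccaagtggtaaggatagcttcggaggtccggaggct
Cox8b: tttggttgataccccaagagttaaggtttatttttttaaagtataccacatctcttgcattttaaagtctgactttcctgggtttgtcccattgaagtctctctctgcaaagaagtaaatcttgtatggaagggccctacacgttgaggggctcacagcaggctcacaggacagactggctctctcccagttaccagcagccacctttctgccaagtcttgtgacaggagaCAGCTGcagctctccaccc
Cox8a: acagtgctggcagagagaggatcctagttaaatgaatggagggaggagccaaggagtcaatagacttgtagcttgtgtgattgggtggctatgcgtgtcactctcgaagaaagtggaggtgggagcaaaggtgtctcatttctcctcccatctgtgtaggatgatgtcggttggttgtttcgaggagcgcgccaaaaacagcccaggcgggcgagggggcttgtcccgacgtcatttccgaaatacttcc
Sdha: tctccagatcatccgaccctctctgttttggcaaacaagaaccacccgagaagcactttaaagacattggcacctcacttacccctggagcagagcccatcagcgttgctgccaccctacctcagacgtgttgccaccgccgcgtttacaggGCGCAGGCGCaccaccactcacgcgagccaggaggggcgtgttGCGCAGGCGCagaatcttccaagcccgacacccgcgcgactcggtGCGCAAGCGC
Of these windows, Sdha held 3 matches to the NRF-1 core, Cox8b held 1 to CAGCTG, and Cox7a1, Cox7a2 and Cox8a held none of the 4. Windows were found for 73 of the 87 genes, and Cox6a2 is not among them. The NRF-1 core occurred in 13 of the 73 (17.8%), beside 5.64% of 27025 genes with windows of the same length. These are all genes with a window, not only those on the array, and a gene counts if any of its windows matches. CGGAAG occurred in 28 of 73 (38.4%), beside 15.3% of all. CAGCTG and TATAAA each occurred in 6 of 73 (8.22%), beside 14.7% and 14.3% of all. A match is only a string of letters in the window, and binding was not measured.

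After 7 days of 4OHT, transgenic skin had less mRNA of 16 respiratory chain genes and more of 2 than transgenic skin at day 0. The largest falls were in Cox8b, Cox7a1 and Cox6a2, the muscle-type isoforms of complex IV. The other 13 falls, with changes between -0.53 and -0.23 on the log2 scale, were 10 subunits of complex I, 2 of complex II and Ndufa4 of complex IV. Changes are differences of log2(scaled intensity + 32), and the value after ± is their standard error in limma. A gene is called when its p, adjusted by Benjamini and Hochberg's method over the 9063 genes, is under 0.05. The 16 falls are 18.4% of the 87 and the 2 rises 2.3%, whereas 20.1% of all genes tested were called lower and 18.6% higher. In RNA of total skin fewer cells of a type and less RNA per cell cannot be told apart. The share of falls was near the background, and rises were few against it. The median change of the 87 was -0.13, against 0.01 over all genes, and 68 of them (78.2%) lay below 0, against 49.4% of all genes. Without transgenic day 0 replicate 2 the calls came to 10, and without further scaling of the arrays to 0 rises and 9 falls.

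Cox6a2 encodes the form of subunit VIa found in heart and skeletal muscle. Its scaled intensity was 3069 and 4884 on the transgenic day 0 arrays, 2819, 2700.4 and 2651 at day 1 and 1228, 1476 and 1324 at day 7. In wild-type skin it was 3068, 3684 and 3632 at day 0, 2033, 2687 and 2008 at day 1 and 3579 and 3191 at day 7. The 3 transgenic day 7 arrays were below each of the other 13. From day 0 to day 7 it fell by 1.51 ± 0.16 in transgenic skin (adjusted p = 3.56e-06). In wild-type skin it fell by 0.63 ± 0.15 to day 1 (adjusted p = 0.00715), and its day 7 value was -0.03 from day 0, not called.

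Cox7a1, the muscle form of subunit VIIa, which is also abundant in brown fat, ran from 751 and 1235 at day 0 and 551, 659 and 541 at day 1 to 299, 275 and 211 at day 7 in transgenic skin. The wild-type arrays gave 629, 1012 and 805 at day 0, 451, 619.9 and 498 at day 1 and 850.5 and 642 at day 7. Here too the transgenic day 7 arrays did not overlap with any other group. The change to day 7 in transgenic skin was -1.78 ± 0.22 (adjusted p = 1.21e-05), and the wild-type change to day 1 was -0.60 ± 0.19 (adjusted p = 0.0383). The wild-type call was lost in 4 of the 6 fits that left out an array of the groups compared.

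Cox8b encodes the muscle form of subunit VIII. Transgenic skin had 2748 and 3536 at day 0, 2216, 2218 and 2741 at day 1 and 822, 665 and 743 at day 7. Wild-type skin had 2974, 3511 and 2271 at day 0, 1879, 2104 and 1898 at day 1 and 2349 and 2096 at day 7. The highest transgenic day 7 array lay below the lowest of the other 13, which was a wild-type day 1 array. The change to day 7 was -2.03 ± 0.16 (adjusted p = 1.47e-07) in transgenic skin, the largest of the 87, and -0.37 in wild-type skin, not called. The wild-type change to day 1 was -0.55 ± 0.14 (adjusted p = 0.013), and it missed the threshold when day 0 replicate 2 or day 1 replicate 1 was left out.

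The general forms that stand in the same places of complex IV did not pass the threshold. Cox6a1 read 7213 and 6266 at day 0 and 6953, 7468 and 8339 at day 7 in transgenic skin, a change of 0.17 ± 0.09 (adjusted p = 0.158). Cox7a2 read 6707 and 6705 at day 0 and 6406, 6706 and 6111 at day 7, a change of -0.07 ± 0.09 (adjusted p = 0.618). Cox8a read 3452 and 2649 at day 0 and 3453, 3537 and 3338 at day 7, a change of 0.18 ± 0.13 (adjusted p = 0.283). For each general form the day 0 and day 7 arrays overlapped, and for each muscle form they did not. Such separation, here and for the genes below, only describes the arrays. Its share over all genes was not counted, and it adds no support to the calls.

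**Figure D1:**
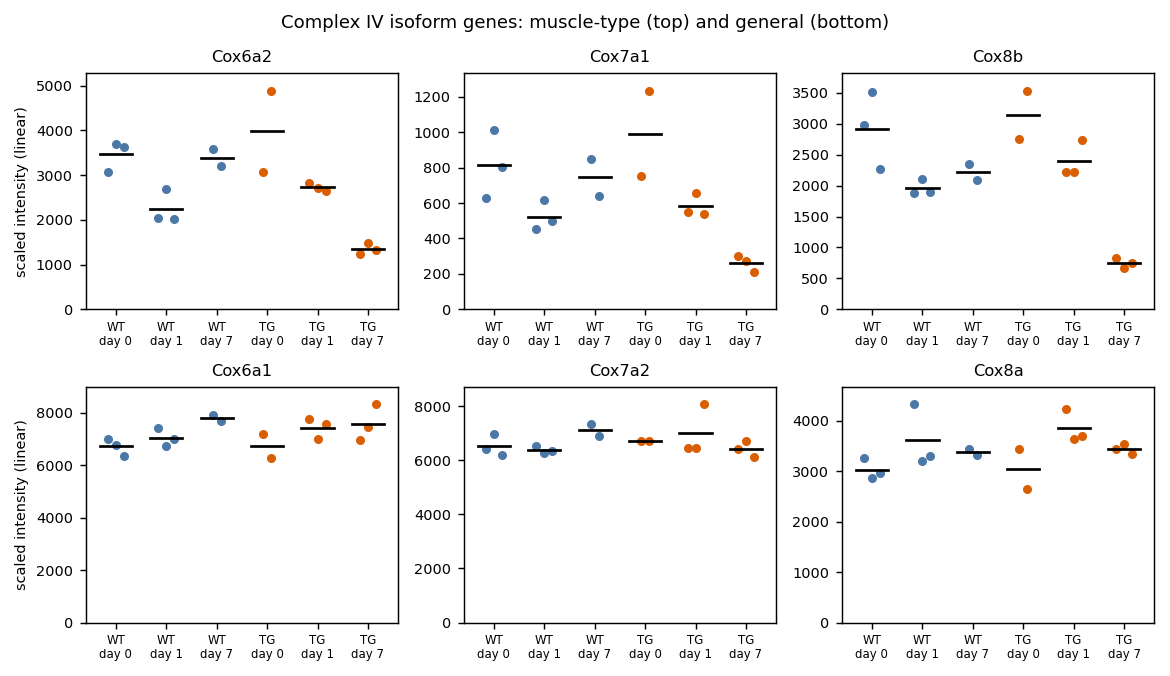
Scaled intensity (linear axis from 0) of 3 muscle-type complex IV genes (top) and their general counterparts (bottom) on each array, by genotype (WT, wild type; TG, transgenic) and day of 4OHT. Points are arrays and bars are group means; in the top row the transgenic day 7 arrays lie below all others, at 1228 to 1476 for Cox6a2, and in the bottom row they overlap with the other groups.

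Markers of several cell types moved with these falls. Of 18 muscle markers 15 fell in transgenic skin from day 0 to day 7, with a median change of -1.01 and a range of -2.11 to -0.17. Pygm, the muscle glycogen phosphorylase, fell by 2.11 and Tcap of the sarcomere fell by 1.88, whereas Acta1, skeletal α-actin, read -0.17 (adjusted p = 0.303), not called. The summed level of the 18 was 128222 to 157848 at transgenic day 0, 124388 to 133462 at day 1 and 78412 to 88016 at day 7. In wild-type skin it was 133744 to 156282 at day 0, 115686 to 135727 at day 1 and 138399 to 158997 at day 7. All 18 passed the filter on dim probe sets. Fat cell markers fell in 7 of 10 cases in transgenic skin, with a median of -1.23. Their sum there was 29661 to 34438 at day 0 and 15899.7 to 17731 at day 7. In wild-type skin 1 of the 10 fell (median -0.49), and the sum was 31346 to 33993 at day 0 and 25190 to 30229 at day 7. Ucp1, which defines brown fat, lay below the filter, with group means of 4.88 to 22.6. In transgenic skin markers of the hair follicle matrix, sheath and shaft rose in 11 of 11 cases, with a median of 5.29. Their sum was 812 to 1066 at day 0 and 33179 to 50062 at day 7. Endothelial markers fell in 5 of 6 cases (median -0.83, sum 1941 to 1959 at day 0 and 1009 to 1261 at day 7). Markers of basal epidermis fell in 4 of 7 (median -0.50), with sums of 37040.3 to 42460.1 and 30119.5 to 31215. Of 9 markers of differentiated epidermis 2 rose and 3 fell, of 9 of dermal fibroblasts 2 rose and 2 fell, of 5 of the sebaceous gland 1 rose and 1 fell, and the 11 macrophage markers had a median of 0.12 and a range of -0.33 to 0.57. The part of any of these cell types in the values of the 87 genes was not tested. Without Cox6a2, Cox7a1 and Cox8b the remaining 84 genes held 13 falls and 2 rises, with a median of -0.12 and a range of -0.53 to 0.68.

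Complex I, the NADH dehydrogenase, is the largest complex, with the most genes here, and had the most falls. In transgenic skin at day 7, 10 of its 33 subunit genes (30.3%) had fallen from day 0 and none had risen. Over all genes tested 20.1% were called lower and 18.6% higher. The median change of the 33 was -0.21, and 31 of them lay below 0. Complex II had the larger share of falls, 2 of 4 genes (50%), and the lower median, at -0.40. The median of complex I stayed below 0 with quantile normalization (-0.17, against -0.03 over all genes) and without scaling (-0.36, against -0.13 over all genes). The 3 falls with the smallest p were in accessory subunits.

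Ndufv3, of the NADH-binding module, went from 2714 and 2925 at transgenic day 0 to 1937, 1914 and 1982 at day 7, a change of -0.53 ± 0.10 (adjusted p = 0.000501). In wild-type skin it read 3052, 3208 and 2607 at day 0 and 3163 and 3044 at day 7. The transgenic day 7 arrays were the lowest 3 of 16. Ndufa13, also known as GRIM-19, went from 3306 and 3268 to 2307, 2368 and 2228 in transgenic skin, a change of -0.51 ± 0.10 (adjusted p = 0.000849). Its wild-type arrays gave 4086, 3467 and 3289 at day 0 and 3918 and 3297 at day 7, all above the transgenic day 7 arrays. Ndufa6, a subunit that binds the mitochondrial acyl carrier protein, went from 2331 and 2752 to 1899, 1873 and 1877, a change of -0.42 ± 0.08 (adjusted p = 0.000954).

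Core subunits that carry iron-sulfur clusters were among the falls. Ndufs1, the largest subunit, went from 1452 and 1827 to 1187, 1273 and 1284, a change of -0.38 ± 0.12 (adjusted p = 0.0202). Without transgenic day 0 replicate 2 its change was -0.21 and not called (adjusted p = 0.281). Ndufs7, which holds the last cluster before ubiquinone, changed by -0.41 (adjusted p = 0.0152), and Ndufs3, a core subunit without a cluster, by -0.23 (adjusted p = 0.0385). Other core subunits did not pass the threshold: Ndufv1, which binds NADH, read -0.03 ± 0.12, Ndufv2 -0.06 ± 0.10 and Ndufs8 0.06 ± 0.09. The other falls were in Ndufab1, the acyl carrier protein itself, at -0.33, and in Ndufb3, Ndufb8 and Ndufb9 of the membrane arm, at -0.44, -0.27 and -0.37. Of the 10 falls, those of Ndufs1, Ndufs7, Ndufs3, Ndufab1, Ndufb8 and Ndufb9 were lost when transgenic day 0 replicate 2 was left out, and those of Ndufab1, Ndufb8, Ndufs1 and Ndufs3 also with other arrays left out. By mean level Ndufb9 was the brightest complex I probe set, at 5002, and Ndufb1 the dimmest, at 209.

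Complex II, succinate dehydrogenase, also works in the tricarboxylic acid (TCA) cycle and has 4 subunits, all on the array. Sdha, the flavoprotein that oxidises succinate, went from 2638 and 3210.4 at transgenic day 0 to 1998, 1924 and 2216 at day 7, a change of -0.50 ± 0.11 (adjusted p = 0.00193). Sdhc, a membrane anchor, went from 1634 and 1569 to 1281, 1139.8 and 1234, a change of -0.39 ± 0.08 (adjusted p = 0.0017). In both genes the day 7 arrays were the lowest 3 of 16. Sdhd, the other anchor, read 1686 and 1438 and then 1316, 1009 and 1159, a change of -0.42 ± 0.18 (adjusted p = 0.0762), not called. Sdhb, the iron-sulfur subunit, read 2631 and 2808 and then 2732, 2518 and 2726, a change of -0.03 ± 0.10 (adjusted p = 0.839), and its groups overlapped. With the mean of both Sdhc probe sets the change was -0.30 and just missed the threshold (adjusted p = 0.0515). That of Sdha was -0.36 (adjusted p = 0.051) without transgenic day 0 replicate 2.

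**Figure D2:**
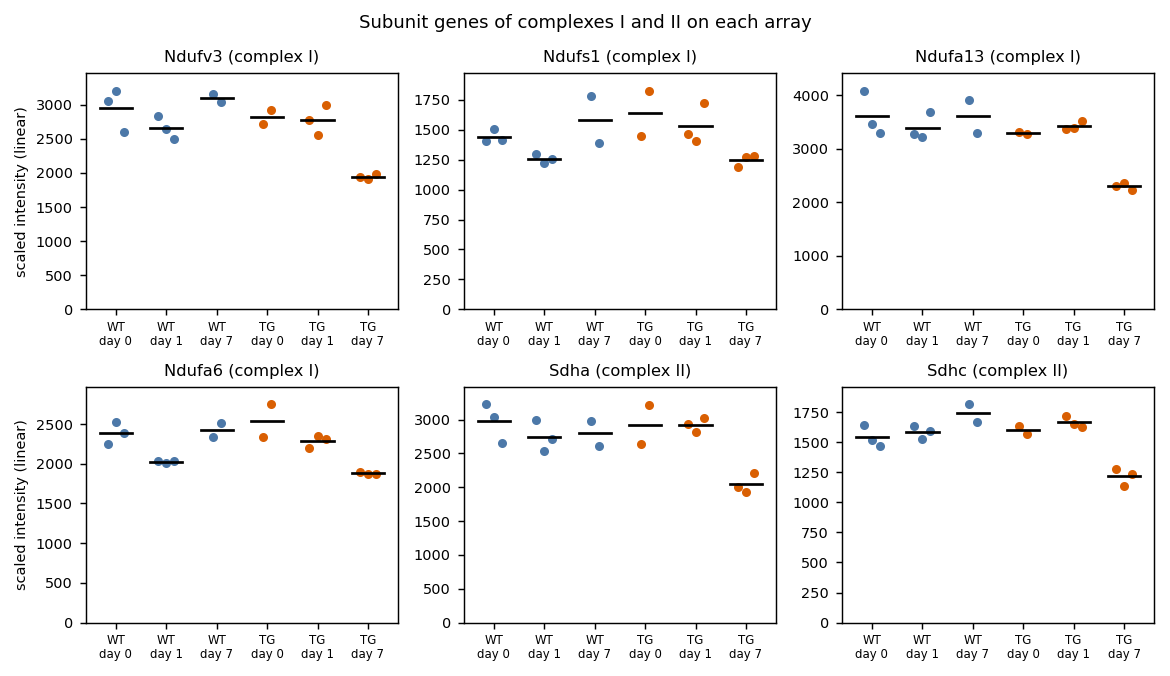
Scaled intensity (linear axis from 0) of 4 complex I and 2 complex II genes on each array, by genotype (WT, wild type; TG, transgenic) and day of 4OHT, with points for arrays and bars for group means. In Ndufv3, Ndufa13, Ndufa6, Sdha and Sdhc the 3 transgenic day 7 arrays are the lowest of 16; in Ndufs1 the wild-type day 1 arrays reach as low, at 1295, 1221 and 1255.

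In complex III, ubiquinol to cytochrome c reductase, 0 of 8 genes were called by limma in transgenic skin at day 7 against day 0. Of all genes tested 20.1% were called lower and 18.6% higher, and 8 genes are few to set beside these shares. Of the 8, 1 had an unadjusted p under 0.05. Their median was -0.10, and all 8 values lay between -0.24 and -0.02. Uqcrfs1, the Rieske iron-sulfur protein, had the lowest, at -0.24 ± 0.10 (adjusted p = 0.0686). The brightest probe set was that of Uqcrb, with a mean of 11064, and the dimmest that of Uqcr10, at 1471.

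In complex IV, cytochrome c oxidase, 4 of 17 genes fell (23.5%, beside 20.1% of all genes tested) and 1 rose (5.88%, beside 18.6%), with a median of -0.06. Beside the 3 muscle forms, Ndufa4, once assigned to complex I and now to complex IV, went from 4334 and 4747 to 3099.5, 3801 and 3346, a change of -0.41 ± 0.14 (adjusted p = 0.026), which was lost without either transgenic day 0 array or without day 7 replicate 1 or 3. Cox6b2, the testis form of subunit VIb, rose from 92.7 and 101 to 186, 159 and 178, a change of 0.68 ± 0.17 (adjusted p = 0.00464). It was the dimmest of the complex, with a mean of 108, beside 7452 for Cox6c, the brightest. The general form Cox6b1 read -0.10 ± 0.09, and Cox8c, another testis form, -0.04 ± 0.18, neither called. Cox4i1, the general form of subunit IV, read 5115 and 5552 and then 5299, 5183 and 4966, and Cox4i2, its form in lung and under low oxygen, read 136 and 149 and then 164, 156 and 170.2. Their changes were -0.05 ± 0.08 and 0.17 ± 0.15, neither called.

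In complex V, the ATP synthase, 0 of 17 genes were called by limma at day 7 against day 0, beside 20.1% lower and 18.6% higher of all genes tested. Of the 17, 1 had an unadjusted p under 0.05. The median was -0.03, and 0.01 with quantile normalization. Atp5a1 and Atp5b, the α and β subunits of the catalytic head, read -0.09 ± 0.11 and 0.10 ± 0.10. Atp5g1, Atp5g2 and Atp5g3 encode the same mature subunit c of the proton-driven ring and differ in the part that directs import. Atp5g1 read 2188 and 2987 at day 0 and 1975, 2081 and 2096 at day 7, a change of -0.31 ± 0.13 (adjusted p = 0.0592) that missed the threshold. Atp5g2 read 0.12 ± 0.09 (adjusted p = 0.336) and Atp5g3, the brightest gene of the complex with a mean of 7723, 0.06 ± 0.08 (adjusted p = 0.623). Atp5k, subunit e, varied within groups, with 3319, 3096 and 5759 at transgenic day 7 and 5625 and 2527 at wild-type day 7. Atp5md was the dimmest, at 893.

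Among the 8 assembly factors 1 was called higher in that comparison (12.5%, beside 18.6% of all genes tested) and 0 lower (beside 20.1%). Sdhaf1, which helps iron-sulfur clusters into Sdhb, rose from 273 and 263 to 562, 410.1 and 370.0, a change of 0.66 ± 0.16 (adjusted p = 0.00348). Sdhaf4, the brightest with a mean of 711, read -0.24 ± 0.11 (adjusted p = 0.0861), and Ndufaf5, the dimmest at 211, 0.08 ± 0.13 (adjusted p = 0.661), neither called.

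**Figure D3:**
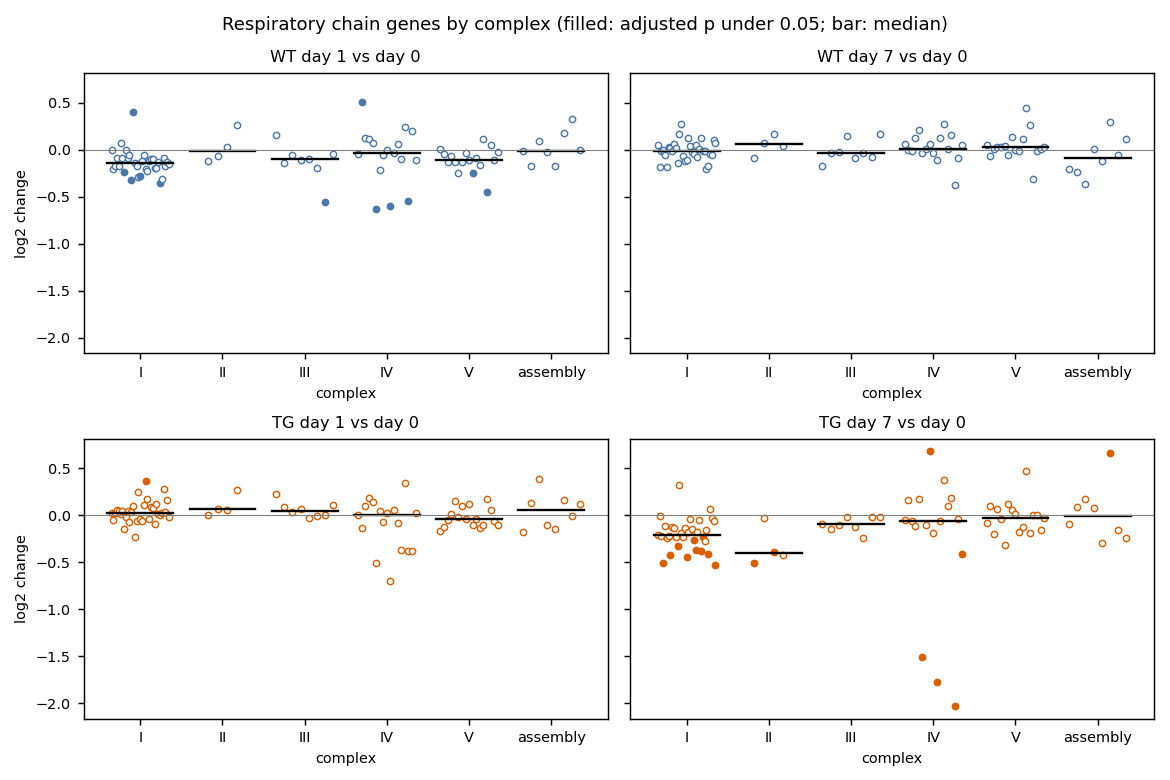
Log2 change from day 0 of each of the 87 genes, by complex, in wild-type (top) and transgenic skin (bottom) at day 1 (left) and day 7 (right). Each point is a gene, filled where the limma adjusted p is under 0.05, and bars are medians; at transgenic day 7 the medians run from -0.40 in complex II to -0.01 for the assembly factors, and Cox6a2, Cox7a1 and Cox8b lie between -2.03 and -1.51.

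In transgenic skin 1 gene was called at day 1, and many between day 1 and day 7. At day 1 against day 0, 1 of 87 genes was called higher and 0 lower, where 6.58% and 4.14% of all genes tested were called. The median was 0.02 (-0.0038 with quantile normalization), against -0.03 over all genes. The gene was Ndufb7, an accessory subunit of the membrane arm of complex I, with 1939 and 1883 at day 0 and 2463, 2269 and 2703 at day 1, a change of 0.37 ± 0.09 (adjusted p = 0.0198). The call was lost without further scaling (0.23, adjusted p = 0.654) and without any of transgenic day 0 replicate 1, day 0 replicate 2 or day 1 replicate 3, where adjusted p was 0.0672, 0.147 and 0.0509. From day 1 to day 7, 31 genes fell (35.6%, beside 22.7% of all genes tested) and 4 rose (4.6%, beside 21.6%), with a median of -0.16 against 0.02. This comparison shares the transgenic day 7 arrays with the one against day 0.

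By complex, the falls from day 1 to day 7 were 18 of 33 in complex I, 3 of 4 in complex II, 3 of 8 in complex III, 5 of 17 in complex IV and 1 of 17 in complex V, with 1 of 8 assembly factors. Over the same days markers of muscle fell in 15 of 18 cases (median -0.81), of macrophages in 9 of 11 (-0.78), of endothelium in 5 of 6 (-0.63) and of fat in 7 of 10 (-0.93), and hair follicle markers rose in 11 of 11 (5.38). Of 7 markers of basal epidermis 3 fell and 1 rose, and of 9 of differentiated epidermis 2 fell and 2 rose. Of 9 markers of dermal fibroblasts 5 fell (-0.32), and of 5 of the sebaceous gland 1 rose. Their part in these falls was not tested. Sdhd went from 1656, 2269 and 1756 to 1316, 1009 and 1159, a change of -0.68 ± 0.16 (adjusted p = 0.00278). Its second, dimmer probe set read 0.18 there, not called. Ndufb7 fell back from its day 1 level to 1782, 1722 and 1673, a change of -0.51 ± 0.08 (adjusted p = 0.000147). Cox8b, Cox7a1 and Cox6a2 changed by -1.64, -1.08 and -1.01. In complex III the falls were in Uqcr10, Uqcr11 and Uqcrfs1, at -0.32, -0.24 and -0.23, and each was lost in 5 of the 6 fits that left out an array of the groups compared. The rises were in Cox6b2 (0.75), Sdhaf1 (0.50), Cox7c (0.47) and Cox7a2l (0.46), the last known for joining complexes III and IV. The probe set of Cox7c was dim, with a mean of 145. Cox7a2l missed the threshold with day 1 replicate 2 left out (0.30, adjusted p = 0.0793), and Sdhaf1 with day 7 replicate 1 left out (0.33, adjusted p = 0.0579). Ndufa12 read -0.25 (adjusted p = 0.0259) on its brightest probe set, and another of its probe sets read 0.44 (adjusted p = 0.0136), so its direction depends on the probe set.

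In wild-type skin genes were called at day 1, and none at day 7. At day 1 against day 0, 10 of 87 genes fell (11.5%, beside 12.3% of all genes tested) and 2 rose (2.3%, beside 10.1%). The median was -0.10 against -0.03 over all genes, and 67 of 87 values (77%) lay below 0, against 53.5% of all. Ndufs5, an accessory subunit of complex I, went from 1506, 1563 and 1526 to 1295, 1244 and 1054, a change of -0.35 ± 0.09 (adjusted p = 0.00943). Uqcrh, the hinge protein of complex III, went from 3341, 3105 and 3374 to 2378, 2209 and 2074, a change of -0.55 ± 0.16 (adjusted p = 0.0187). In both genes every day 1 array was below every day 0 array, and the Uqcrh call was lost without day 1 replicate 3. The other falls were in Cox6a2, Cox7a1 and Cox8b, given with the muscle forms, in Ndufab1 (-0.32), Ndufb3 (-0.28) and Ndufa6 (-0.24), and in Atp5md (-0.45) and Atp5j (-0.25) of complex V. The rises were in Cox4i2, from 115, 101 and 122 to 171, 157 and 195, a change of 0.51 (adjusted p = 0.0128), and in Ndufb1, a change of 0.40 (adjusted p = 0.0258), both dim.

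The wild-type day 1 count moved with single arrays. It was 3 without day 1 replicate 3, 4 without day 0 replicate 2, 5 without day 1 replicate 1 and 0 without further scaling. Macrophage markers rose in 9 of 11 cases at that time (median 1.26), and their sum was 24014 to 28259 at day 0 and 42199.6 to 47006 at day 1. Markers of basal epidermis fell in 5 of 7 cases (median -0.35), of differentiated epidermis in 4 of 9 (-0.22), of muscle in 4 of 18 (-0.27), of endothelium in 1 of 6 and of the hair follicle in 1 of 11, and of dermal fibroblasts 1 of 9 rose. The 10 fat and 5 sebaceous gland markers had medians of -0.10 and -0.09. Macrophage markers also rose in transgenic skin at day 1, in 8 of 11 cases (median 1.07). In wild-type skin 10 of 11 were called higher at day 7 than at day 0 (median 0.99). The part of these cell types in the values of the 87 genes was not tested. At day 7 against day 0 limma called 0 of 87 in wild-type skin, where 5.48% of all genes were called higher and 5.97% lower, and 5 had an unadjusted p under 0.05. The median was 0.00 against -0.03. From day 1 to day 7 it called 0, beside 1.63% higher and 1.41% lower of all, and 20 had an unadjusted p under 0.05. That median was 0.12 against -0.01, with 16 of 87 values below 0, and it shares the wild-type day 1 arrays with the day 1 comparison.

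Between the genotypes, skin at day 0 gave no call. At day 0 limma called 0 of 87, where 0.011% of all genes were called higher and 0% lower, and 3 had an unadjusted p under 0.05. At day 1, 1 was higher in transgenic skin and 0 lower, beside 0.717% and 0.596% of all. The gene was Ndufb7, at 2463, 2269 and 2703 in transgenic and 1940.4, 1888 and 1821 in wild-type skin, a difference of 0.39 ± 0.08 (adjusted p = 0.037). With transgenic replicate 1 or 3, or any of the 3 wild-type arrays, left out at that day, adjusted p was 0.0759 to 0.128. The median of the 87 at day 1 was 0.10 against 0.00 over all genes, with 68 of 87 above 0.

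At day 7, 23 of 87 genes were lower in transgenic than in wild-type skin (26.4%, beside 21% of all genes tested) and 4 higher (4.6%, beside 19.5%). The median was -0.14 against 0.01. By complex, 14 of 33 were lower in complex I (median -0.23), 3 of 4 in complex II (-0.47), 0 of 8 in complex III (-0.14), 4 of 17 in complex IV (-0.08, and 0.01 with quantile normalization) and 2 of 17 in complex V (-0.07). Without wild-type day 7 replicate 1, which leaves 1 wild-type array at that day whose spread is taken from the other groups, 10 were called, and without further scaling 6. The same 3 transgenic day 7 arrays stand in this comparison and in those within transgenic skin.

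The muscle forms differed most at day 7: Cox8b by -1.54 ± 0.16 (adjusted p = 3.21e-06), Cox7a1 by -1.41 ± 0.22 (adjusted p = 0.000123) and Cox6a2 by -1.32 ± 0.16 (adjusted p = 1.78e-05). Ndufv3 read 1937, 1914 and 1982 in transgenic and 3163 and 3044 in wild-type skin, a difference of -0.67 ± 0.10 (adjusted p = 7.59e-05). Sdhc read 1281, 1139.8 and 1234 in transgenic and 1819 and 1667 in wild-type skin, a difference of -0.51 ± 0.08 (adjusted p = 0.000208). Sdhd differed by -0.53 (adjusted p = 0.0263) and Sdha by -0.44 (adjusted p = 0.00469), and Sdhb by -0.12 (adjusted p = 0.395), not called. The 2 in complex V were Atp5g1, at -0.33 (adjusted p = 0.049), and Atp5j2, subunit f of the membrane part, at -0.25 (adjusted p = 0.017). With wild-type replicate 1 left out at day 7, Atp5g1 (-0.15), Atp5j2 (-0.19) and Sdha (-0.35) were no longer called. Sdhd was not called when replicate 2 of either genotype was left out, at -0.31 for the wild-type and -0.44 for the transgenic array. Higher in transgenic skin were Cox6b2 (0.67), Cox4i2 (0.44), Sdhaf1 (0.42) and Ndufaf4, a complex I assembly factor (0.44). With quantile normalization 1 gene was called higher in place of 4, Cox4i2 (0.37), Sdhaf1 (0.37) and Ndufaf4 (0.38) being lost, and 2 were called higher without the filter on dim probe sets. Each of the 4 missed the threshold with some day 7 array left out: Cox6b2 with wild-type replicate 2 (0.49), Cox4i2 with wild-type replicate 1 (0.24) or transgenic replicate 1 or 3, Sdhaf1 with either wild-type array or transgenic replicate 1 (0.25) or 2, and Ndufaf4 with wild-type replicate 1 (0.27) or any transgenic array. All 18 muscle markers and 10 of 11 macrophage markers were also lower in transgenic skin at day 7, with medians of -1.09 and -0.98. So were 6 of 6 endothelial markers (-0.87) and 4 of 10 fat markers (-0.97), whereas 11 of 11 hair follicle markers were higher (5.26). Of 7 markers of basal epidermis 3 were lower and 1 higher, and of 9 of differentiated epidermis 2 were lower and 2 higher. Lower were 4 of 9 markers of dermal fibroblasts (-0.27) and 1 of 5 of the sebaceous gland. Their part in the differences of the 87 genes was not tested.

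The direct test of whether the change from day 0 differed between genotypes gave 0 of 87 at day 1, where 0.11% of all genes were higher and 0.177% lower, and 12 had an unadjusted p under 0.05. The smallest p at day 1 were those of Ndufb7 at 0.56 (adjusted p = 0.0641), Ndufb2 at 0.53 (adjusted p = 0.153) and Cox4i2 at -0.65 (adjusted p = 0.169). For day 7, 8 of 87 were lower (9.2%, beside 11.7% of all genes) and 0 higher (beside 12.1%). In complex IV these were Cox8b at -1.66 ± 0.23 (adjusted p = 0.000144), Cox6a2 at -1.48 ± 0.23 (adjusted p = 0.000417) and Cox7a1 at -1.67 ± 0.31 (adjusted p = 0.00136). In complex II it was Sdhc at -0.56 ± 0.12 (adjusted p = 0.00334). In complex I they were Ndufv3 at -0.60 ± 0.14 (adjusted p = 0.00551), Ndufa6 at -0.44 ± 0.12 (adjusted p = 0.0147), Ndufa13 at -0.51 ± 0.14 (adjusted p = 0.0174) and Ndufs1 at -0.50 ± 0.17 (adjusted p = 0.042). Cox8b, Cox6a2 and Cox7a1 stayed past the threshold with each array left out in turn, whereas Ndufs1 was lost without any of 7 arrays. Leaving out replicate 1 of transgenic day 0 or of wild-type day 7 brought adjusted p to 0.0532 and 0.103 for Ndufa13. Leaving out replicate 2 of the same groups brought it to 0.0887 and 0.0678 for Ndufa6. For the general forms the same difference was -0.05 ± 0.13 in Cox6a1, -0.19 ± 0.13 in Cox7a2 and 0.03 ± 0.18 in Cox8a, none called.

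Lists of other genes of energy metabolism were read in transgenic skin at day 7 against day 0, where the median of all genes was 0.01 and 18.6% of all genes tested were called higher and 20.1% lower. Enzymes of the TCA cycle and pyruvate dehydrogenase fell in 10 of 17 cases with a median of -0.33, among them Ogdh (-0.68), which acts on 2-oxoglutarate, and Pdha1 (-0.54), the catalytic subunit of pyruvate dehydrogenase. Mitochondrial fatty acid oxidation fell in 8 of 13 (median -0.48), among them Slc25a20 (-0.71), the acylcarnitine carrier, and Acadm (-0.57), the medium-chain dehydrogenase. In glycolysis 7 of 11 fell and 1 rose (median -0.45), with the muscle phosphofructokinase Pfkm at -1.49, Ldha at -0.61 and Pgam1 at 0.36. The electron carrier cytochrome c, Cycs, read -0.03 ± 0.16 (adjusted p = 0.906), and of 17 carriers and assembly factors 2 fell, Cox17, a copper chaperone of complex IV (-0.63), and Etfa (-0.41), which feeds electrons from fatty acid oxidation.

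The ADP/ATP carriers, which exchange the product of complex V, moved in opposite directions. Slc25a4, the form of heart and skeletal muscle, went from 6456 and 8596 to 4660.4, 4616 and 4505, a change of -0.69 ± 0.11 (adjusted p = 9.55e-05). Slc25a5, a general form, went from 4777 and 5316 to 6872, 7976 and 7417, a change of 0.55 ± 0.10 (adjusted p = 0.000451). Ckmt2, the creatine kinase of muscle mitochondria, changed by -1.53 (adjusted p = 7.99e-05). Of 12 regulators of mitochondrial biogenesis 4 rose and 2 fell. Nrf1, the factor NRF-1, went from 261 and 276 to 341, 437 and 445, a change of 0.54 (adjusted p = 0.0022), and Tfb2m, Pprc1 and Tfam rose by 0.46, 0.39 and 0.35. Ppargc1a, a coactivator abundant in muscle and brown fat, changed by -0.57 (adjusted p = 0.0211), and Polg, the mitochondrial DNA polymerase, by -0.24 (adjusted p = 0.0282). Genes of the mitochondrial ribosome, which translates the subunits encoded by mitochondrial DNA, rose in 19 of 74 cases and fell in 2 (median 0.14), and those of the cytosolic ribosome rose in 15 of 45 and fell in 1 (0.20), beside the same 18.6% and 20.1% of all genes.

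**Figure D4:**
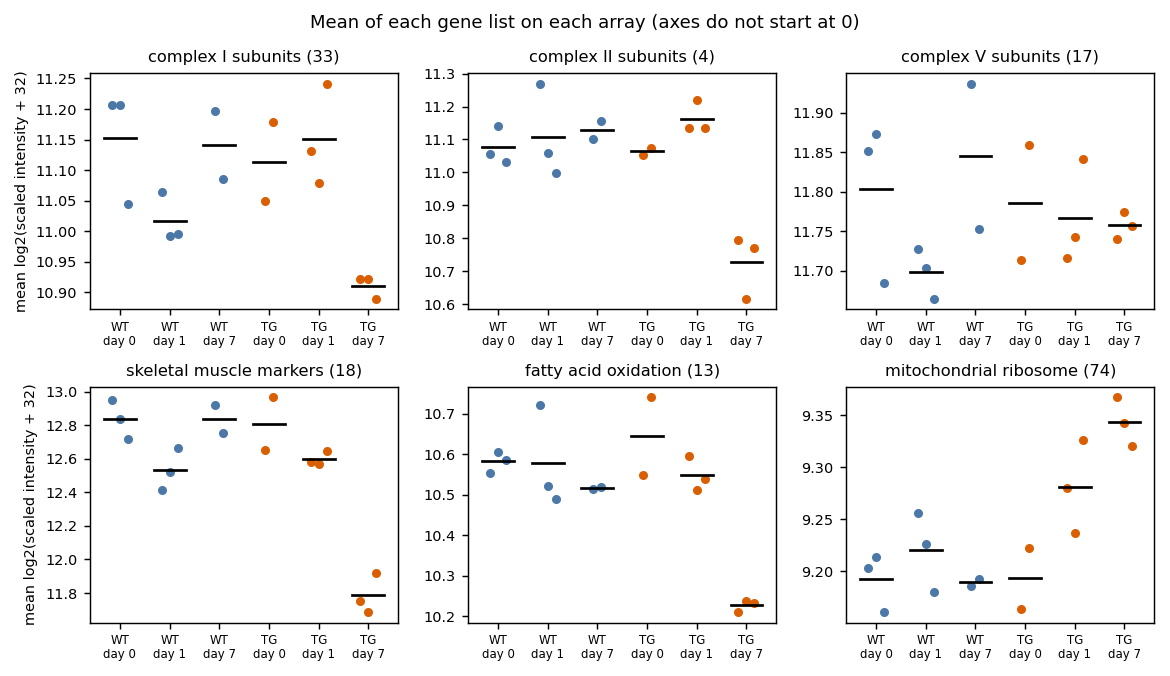
Mean of log2(scaled intensity + 32) over the genes of 6 lists on each array, by genotype (WT, wild type; TG, transgenic) and day of 4OHT; the axes do not start at 0, points are arrays and bars are group means. The 3 transgenic day 7 arrays are the lowest for complex I (10.89 to 10.92), complex II, muscle markers and fatty acid oxidation, lie among the others for complex V, and in the mitochondrial ribosome list 2 of them are the highest.

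The members varied together to different degrees. Over the 16 arrays, which share the 6 groups, the Pearson correlation of a gene with the mean of the other subunits was 0.93 for Ndufb9, 0.92 for Ndufb3 and 0.90 for Ndufa4, the closest, and -0.66 for Cox4i2, -0.51 for Cox6b2 and -0.39 for Ndufb1, the farthest. Among genes outside the 87 the closest to the mean of all subunits were Amacr (0.90), Gsto1 (0.90), Acot13 (0.89), Ensa (0.89) and Cavin4 (0.88), over the same 16 arrays. Where a called gene had other probe sets, these shared its direction in 5 of 5 cases from transgenic day 0 to day 7, in 20 of 27 from day 1 to day 7 and in 10 of 10 between genotypes at day 7. Of these, 3, 7 and 4 were called in the same direction, and 2 of the 27 were called in the opposite one. At wild-type day 1 the direction was shared in 0 of 1. It was shared in 1 of 1 at transgenic day 1, between genotypes at day 1 and for the genotype difference in the day 7 change.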

How the data were processed

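Arrays were made from biotin-labelled RNA of total skin, per the labels' protocols, and each of the 16 samples had values for 22690 probe sets. The deposited values are linear intensities, 1 per probe set, and the steps that summarised and scaled them are not given in the sources used here. The 64 control probe sets were left out of the tests. Arrays were scaled to a common trimmed mean, with 2% removed at each end, by factors of 0.825 to 1.26, since trimmed means differed. Values were taken as log2(scaled intensity + 32). A probe set was kept where it exceeded the array's 40th percentile on 2 arrays or more, and the brightest on average with exactly 1 symbol stood for a gene. All 87 symbols were found unchanged in RefSeq (GRCm38.p6). The number of arrays limits the precision.

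The 6 groups were fitted over all 16 arrays in limma 3.58.1 under R 4.3.3, with a variance trend and 10 residual degrees of freedom, for 11 comparisons. Tests were two-sided, adjusted by Benjamini and Hochberg's method over the 9063 genes. The fit was tested on simulated data. Python 3.11.15 with matplotlib 3.10.9 drew the figures and searched the promoters.

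The genes, the gene lists and the tests were chosen with earlier results of these data known. Named are, in each comparison and direction, the 5 called members of smallest p and the 5 of largest change, the 4 Sdh subunits, isoform families, members whose change differed between genotypes (or the 3 of smallest p), and the brightest and dimmest of each complex; the 5 outside genes most alike in pattern; and, chosen after their values were seen, other called members, examples from the lists, Ndufv1, Ndufv2, Ndufs8, Ndufa12, Uqcrfs1, Atp5a1, Atp5b and Atp5k. Alternatives changed the scaling, the added value, the filter, the arrays fitted, the variance trend, the probe sets and the block, and left out each array in turn.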

Additional observations from a re-analysis of the deposited data

Results flagged for a closer look

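Each of 8 genes had a change from day 0 to day 7 that differed between transgenic and wild-type skin by limma's test of the difference itself, adjusted over all 9063 genes. These 8 were lower and 9.2% of the 87, beside 11.7% of all genes called lower. No member was higher, beside 12.1% of all genes. On the log2 scale the transgenic change minus the wild-type change was -1.67 for Cox7a1, -1.66 for Cox8b and -1.48 for Cox6a2, the muscle-type subunits of complex IV. It was -0.60 for Ndufv3, -0.51 for Ndufa13, -0.50 for Ndufs1 and -0.44 for Ndufa6 in complex I, and -0.56 for Sdhc in complex II. Sdhc read -0.29 (adjusted p = 0.204) with the mean of its probe sets. The calls of Ndufs1, Ndufa13 and Ndufa6 were lost in some of the fits that left out an array.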

How the results depend on the processing

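Calls among the 87 genes were counted again under each alternative. Without further scaling they came to 0 at transgenic day 1, 9 at transgenic day 7, 8 from transgenic day 1 to day 7, 0 at wild-type day 1, 0 and 6 between genotypes at days 1 and 7, and 3 for the genotype difference in the day 7 change. There the median of all genes itself moved, to -0.16 at transgenic day 1, -0.13 at transgenic day 7, -0.11 from wild-type day 1 to day 7, 0.14 between genotypes at day 0, and -0.18 for the genotype difference in the day 1 change, and that of the 87 at transgenic day 7 was -0.28. The transgenic day 1 count was 2 with quantile normalization, the larger added value, the 60th percentile filter, the mean of all probe sets or the replicate block, and 0 with only the groups compared. The difference between genotypes at day 1 gave 0 with only the groups compared, no variance trend, the mean of all probe sets or the replicate block. Wild-type day 7 gave 1 with the mean of all probe sets, and wild-type day 7 against day 1 gave 1 with only the groups compared or no variance trend. At wild-type day 1 only the groups compared gave 8. Ndufa12 turned to 0.24 (adjusted p = 0.0298) from transgenic day 1 to day 7 with the mean of all probe sets. Other totals stayed within 1.5 times the main ones. By direction, the 4 genes higher in transgenic skin at day 7 came to 1 with quantile normalization or without scaling and 2 with the replicate block, only the groups compared, no dim filter or the 60th percentile filter. That last filter left 81 of the 87 genes in the tests, and all 95 calls of the genes it kept stood. The calls missing under it were of genes no longer tested. It also left 1 rise at transgenic day 7, 2 from transgenic day 1 to day 7 and 0 at wild-type day 1. With only the groups compared 6 genes fell at wild-type day 1. The cause of the other differences was not tested.

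With each array left out in turn the counts ran from 0 to 3 at transgenic day 1, 10 to 20 at transgenic day 7, 25 to 32 from transgenic day 1 to day 7, 3 to 14 at wild-type day 1, 0 to 2 at wild-type day 7, 0 to 1 from wild-type day 1 to day 7, 0 to 2 and 10 to 20 between genotypes at days 1 and 7, and 6 to 10 for the genotype difference in the day 7 change, and were 0 between genotypes at day 0 and for the difference in the day 1 change. Same-numbered arrays of different groups were not treated as pairs in the main fit. After centring by group, 7 of 36 such pairs correlated above 0.1 and 16 below 0. Their median was 0.03, against -0.02 for the 70 pairs of different number. Centring makes the arrays of a 2-array group mirror images, so these values cannot settle whether same-numbered arrays belong together. With the replicate number as a block 17, 29, 10, 22 and 8 were called at transgenic day 7, transgenic day 7 against day 1, wild-type day 1, between genotypes at day 7 and for the day 7 difference. Of 102 calls of a gene in a comparison, 78 were kept with quantile normalization, 26 without scaling and 86 with the block. Dim genes such as Cox6b2, Cox4i2 and Cox7c lie near background, where changes are understated by the added 32.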
